A study of Homo sapiens with 27 samples.

Results

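The 6 libraries described here came from MCF10A cells given 3 ligands together for 24 h, with 3 libraries, and from cells given phosphate-buffered saline (PBS) in their place, also with 3. They were chosen by their treatment labels, without reference to any measured value, and are 6 of the 27 libraries of the series. The ligands were epidermal growth factor (EGF), oncostatin M (OSM) and transforming growth factor beta (TGFB), at 10 ng/ml each. MCF10A is an established line of immortalised, non-malignant human breast epithelium, so each library comes from the same line. Before treatment the cells of every group had grown in serum-containing medium with 20 ng/ml EGF, hydrocortisone, cholera toxin and insulin, on collagen-coated plates. They were washed 6 h after seeding and held for 18 h in medium free of growth factors, and the ligands or PBS were then added in fresh medium of that kind. PBS cells had therefore been without EGF throughout, which bears on what the control stands for. A difference from PBS can hold change in PBS cells since 0 h as well as change under the ligands. The remaining 21 libraries, used here only where stated, are of cells collected at 0 h (T0) and of cells given each ligand alone (EGF, OSM, TGFB) or in pairs (EGF+OSM, EGF+TGFB, OSM+TGFB), with 3 libraries in each group. Nothing in the labels says whether replicates were separate cultures, so the p-values measure the spread between these libraries, which may be technical.

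EGF binds the receptor EGFR and signals through RAS and the kinase ERK, which drives epithelial cells to divide, and MCF10A cells are known to depend on it for growth. OSM belongs to the interleukin-6 family and acts through its receptor OSMR and the shared chain IL6ST (gp130) on JAK kinases and the transcription factor STAT3. TGFB acts through the receptors TGFBR1 and TGFBR2 on SMAD transcription factors, is known to halt the division of normal epithelium, and is a classical inducer of epithelial-to-mesenchymal transition, the change from a sheet-forming to a motile cell. MCF10A cells carry the keratins of basal epithelium and can make proteins of the cornified layer of skin when growth signals are withdrawn.

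Library totals were 32.8 to 47.1 M counts with all 3 ligands and 35.8 to 43.1 M in PBS, and the spread between replicates was larger than counting error, with a biological coefficient of variation of 10.1%. Of the 40487 rows in the table, each an Ensembl gene, 16611 passed a filter on low counts over the 9 groups. The groups were compared by the quasi-likelihood test of edgeR with Benjamini-Hochberg adjustment over all rows tested. Below an adjusted p of 0.05, 72.1% of rows were called, 36.6% higher with all 3 ligands (6077 rows) and 35.5% lower (5897 rows). Changes past 2-fold were called in 14.4% of rows upward and 16.3% downward, and past 8-fold in 550 and 739 rows. The median log2 fold change over all rows was 0. Every count of members below is to be read against these shares, since most genes of any kind were called. Levels of single genes are in CPM, the usual counts-per-million unit, after scaling of library sizes by TMM, a trimmed mean of log ratios, and fold changes are all 3 ligands over PBS, on the log2 scale with a standard error (SE). Shares of counts, in contrast, are of unscaled library totals. The TMM factors were 0.867 to 0.891 with all 3 ligands and 1.08 to 1.12 in PBS. A gene with equal CPM in both groups therefore takes a smaller share with the ligands. The 6 libraries did not overlap, with all 3 ligands above PBS, in 37.6% of rows, and in the other direction in 36.9%.

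**Figure D1:**
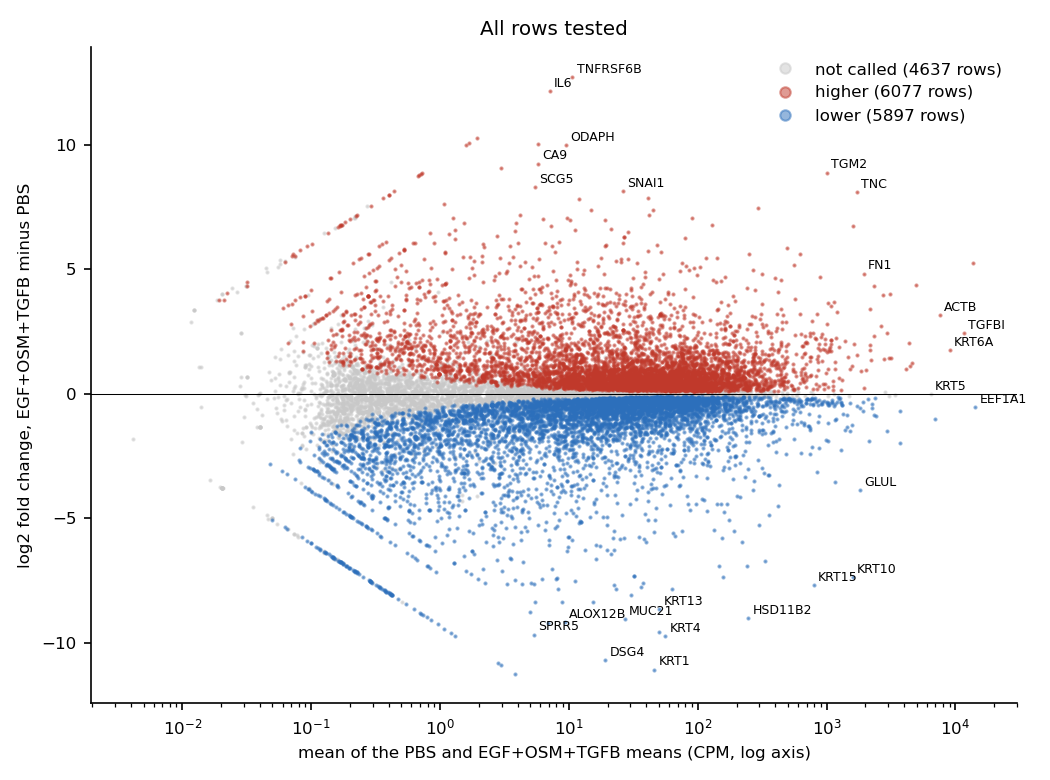
Log2 fold change of all 3 ligands over PBS (vertical axis) against the mean level of both groups in CPM (horizontal log axis) for the 16611 rows tested, coloured by the call. Called rows lie at every level on both sides of 0, and TGFBI, KRT6A and ACTB are among the abundant genes that rose, with the keratins KRT10 and KRT15 among those that fell; the diagonal streaks at low levels are rows with few counts in either group.

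Markers of basal breast epithelium were present in both groups. The 8 of them (KRT5, KRT14, KRT17, TP63, EGFR, ITGA6, ITGB4 and CDH3) summed to 11700 to 13300 CPM in the PBS libraries and to 20800 to 22500 CPM with all 3 ligands, and 7 were called higher. Luminal markers summed to 590 to 737 CPM in PBS and 465 to 660 CPM with the ligands, most of it MUC1 (642 and 537 CPM; not called, but called lower at -0.42 without ligand replicate 2, adjusted p 0.0260, edgeR), while PGR, ELF5 and KIT did not exceed 0.0749 CPM in any of the 6 libraries. Of the 6 luminal markers tested 3 were called lower, all past 2-fold, and 1 higher, with a median log2 fold change of -1.17. GATA3 went from 24.7, 27.3 and 26.7 CPM in PBS to 11.2, 11.9 and 10.4 CPM, and FOXA1 from 4.84, 6.22 and 4.16 CPM to 6.95, 8.92 and 8.24 CPM. Fibroblast markers summed to 129 to 133 CPM in PBS and 50.1 to 59.4 CPM with the ligands, and COL3A1, PDGFRA and THY1 did not exceed 0.174 CPM in any of the 6. Most of the PBS sum and of the fall was DCN, at 95.2, 94.0 and 85.4 CPM in PBS and 11.2, 14.3 and 10.8 CPM with the ligands. Of the 5 tested, DCN and PDGFRB were called lower and COL1A2, under 0.5 CPM in all 6 libraries, was called higher. COL1A1 and LUM were not called. Myoepithelial and smooth-muscle markers summed to between 8.12 and 11.1 CPM in both groups, and blood-cell markers to 72.2 to 78 CPM in PBS and 90.5 to 103 CPM with the ligands. The blood-cell sum came from CSF1R (46.9 and 52.2 CPM, not called) and CD68 (27.2 and 46.6 CPM, called higher), while PTPRC, CD3E, LYZ and HBB did not exceed 0.151 CPM. Whether other cell types have a part in any result was not tested. Endothelial markers summed to 31.2 to 35.3 CPM in PBS, most of it KDR (30.2 CPM, and 1.38 CPM with the ligands), and to 2.16 to 2.57 CPM with the ligands. CDH5 did not exceed 0.043 CPM. Of the 5 endothelial markers tested 3 were called lower, while TEK and ERG, at no more than 0.685 CPM in the 6 libraries, were called higher. In bulk samples such as these, fewer cells of a kind and less RNA in each cell cannot be told apart.

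Genes of the laminins, the basement membrane proteins that anchor epithelial cells through integrins and hemidesmosomes, were among the most abundant in cells given all 3 ligands. LAMA3 (ENSG00000053747, chromosome 18, 23689453 to 23956222, plus strand; GENCODE v44 on GRCh38, as for all positions given), which encodes an alpha chain, stood at 489, 426 and 453 CPM in the PBS libraries and at 10070, 9253 and 8745 CPM with the ligands. LAMB3 (ENSG00000196878, chromosome 1, 209614870 to 209652425, minus strand), which encodes a beta chain, went from 380, 357 and 350 CPM to 6093, 5976 and 5618 CPM. In both genes every ligand library was far above every PBS library, with log2 fold changes of 4.36 and 4.02. LAMA3 ranked 6 by its share of counts with the ligands, at 0.821%, and 276 in PBS, at 0.0501%.

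The matrix protein gene TGFBI took 1.72% of counts against 0.398% in PBS, the keratin gene KRT6A 1.23% against 0.452%, beta-actin ACTB 1.20% against 0.169%, and the elongation factor EEF1A1 1.02% against 1.85%. LAMA3, gamma-actin ACTG1, GAPDH, KRT5, ANXA2 and LAMB3 were also among the 12 rows with the highest share. These 12 held 11.6% ± 0.301 of the counts, against 7.56% ± 0.235 for the 12 highest in PBS (SD, n = 3). PBS cells were led by EEF1A1, the mitochondrial MT-CO1, KRT5, the ferritin chain FTH1, EEF2 and the desmosome protein DSP. Then came KRT6A, TGFBI, AHNAK, the glutamine synthetase GLUL, PERP and KRT10, and 4 rows stood in both sets of 12.

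Shares of counts favour long transcripts. Per kilobase of the longest annotated transcript, KRT6A led with all 3 ligands at 5314 CPM per kilobase on unscaled totals, followed by the metallothionein MT2A at 4965. TMSB10, ACTB at 4695, S100A2 at 4503, TGFBI, GAPDH, MT-CO1 and KRT17 were also among the 12 highest on that scale. In PBS, MT2A stood at 396 on the same scale, while MT-CO1 led at 6612. With the median transcript length in place of the longest, 9 of the 12 stayed among the 12 highest with the ligands, and 5 in PBS.

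**Figure D2:**
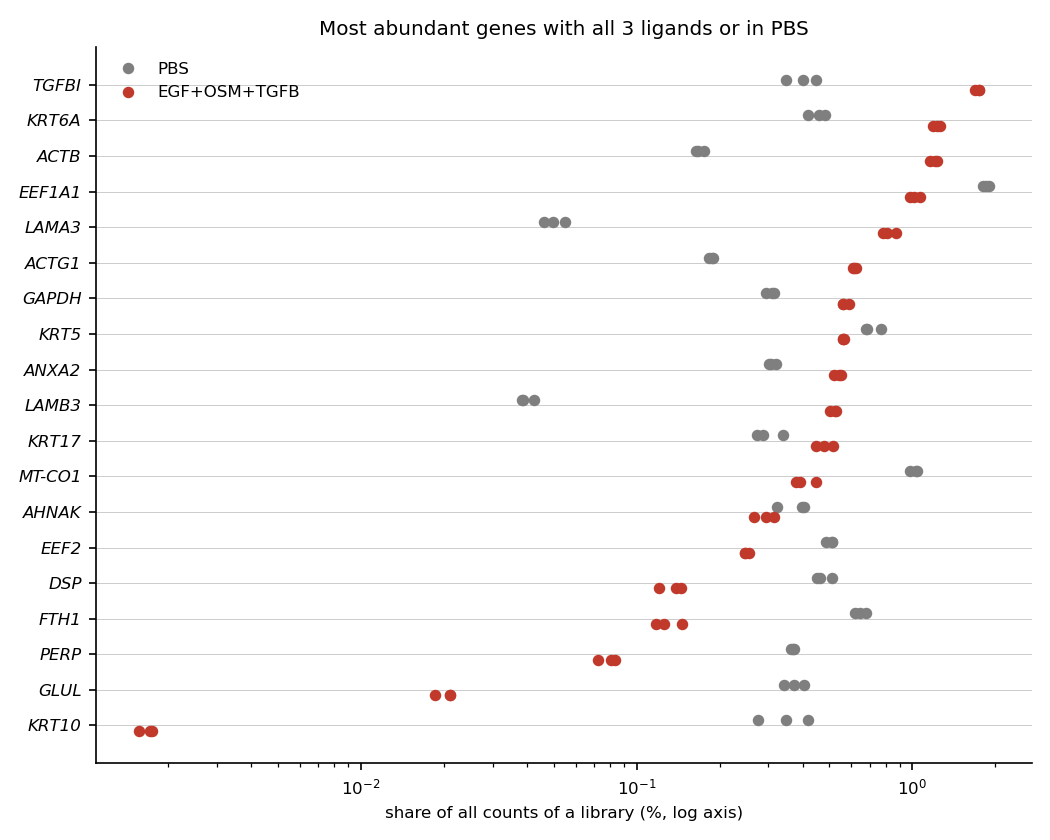
Share of all counts of a library (%, log axis) for genes that are among the 12 most abundant rows with all 3 ligands or in PBS, 1 point for each library (grey, PBS; red, all 3 ligands). LAMA3 and LAMB3 sit below 0.1% in all PBS libraries and above 0.5% with the ligands, and KRT10 moves the other way, while AHNAK lies close in both groups.

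Other genes of the basement membrane changed in both directions. Of 13 basement membrane genes tested, 6 rose and 5 fell, and their median log2 fold change was -0.11. The linking protein agrin (AGRN) rose from 285 to 659 CPM and LAMC1 from 556 to 825 CPM. LAMB2 fell from 442 to 153 CPM, perlecan (HSPG2) from 570 to 136 CPM, and the hemidesmosome linker DST from 699 to 429 CPM. Nidogen NID1 held 400 counts over the PBS libraries and 2 with the ligands, a ratio of 159 (95% exact Poisson interval 43.8 to 1320, counting error only).

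Integrins, the receptors that tie cells to laminin, fibronectin and collagen, rose nearly throughout: 11 of 13 chains were higher, 1 was lower, and the median was 2.07. ITGB3, the beta chain of the vitronectin receptor, went from 0.449, 0.237 and 0.367 CPM to 86.9, 91.6 and 68.4 CPM (log2 fold change 7.88 ± 0.36 SE; adjusted p 4.49e-14, edgeR). The collagen-receptor chain ITGA2 rose from 75.5 to 810 CPM, ITGB6, which activates latent TGFB, from 121 to 1119 CPM, and the fibronectin-receptor chain ITGA5 from 179 to 1373 CPM. Both chains of the hemidesmosome integrin rose, ITGA6 from 460 to 1680 CPM and ITGB4 from 995 to 3329 CPM. ITGB8 was the member that fell, from 127 to 30.1 CPM. Integrin chains together took 1.29% ± 0.0621 of the counts, against 0.376% ± 0.0210 in PBS (SD, n = 3).

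Adhesive and matricellular proteins, secreted molecules that modulate how cells hold the matrix, rose in 15 of 20 genes and fell in 5, with a median of 2.89. Tenascin C (TNC, ENSG00000041982, chromosome 9, 115019575 to 115118207, minus strand) stood at 14.8, 10.9 and 11.9 CPM in PBS and at 3459, 3375 and 3380 CPM with the ligands, 8.09 ± 0.21 higher on the log2 scale (SE; adjusted p 1.87e-18 in edgeR). The ligand libraries differed from each other by far less than the distance to PBS. Fibronectin (FN1, ENSG00000115414, chromosome 2, 215360440 to 215436073, minus strand) went from 144, 111 and 141 CPM to 3962, 4222 and 3039 CPM. TGFBI, already abundant in PBS at 3569, 3226 and 4082 CPM, reached 20080, 19900 and 18850 CPM. Periostin (POSTN), thrombospondin THBS1, versican (VCAN) and the connective tissue growth factor CCN2 also rose, CCN2 from 1.94 to 101 CPM. The members that fell were ECM1, MATN2, FBLN5, THBS2 and FBLN1, the last from 696 to 277 CPM. For ECM1 the difference was small, from 34.7, 41.9 and 52.1 CPM in PBS to 33.0, 31.4 and 33.0 CPM with the ligands. The ECM1 call was lost without any 1 of the ligand libraries, without PBS replicate 2 or 3, and with no filter (adjusted p 0.0542 to 0.234, edgeR).

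Collagens and the enzymes that process them rose in 18 of 25 genes tested and fell in 5 (median 1.85), with 1 further listed gene, COL3A1, too low to test. Transglutaminase TGM2 (ENSG00000198959, chromosome 20, 38127385 to 38166578, minus strand), which cross-links matrix proteins, stood at 3.87, 4.69 and 4.18 CPM in PBS and at 2099, 2147 and 1814 CPM with the ligands (log2 fold change 8.89 ± 0.25 SE; adjusted p 8.54e-18, edgeR). The basement membrane collagens COL4A1 and COL4A2 rose from 16.5 to 524 and from 36.3 to 855 CPM, the lysyl hydroxylase PLOD2 from 65.0 to 1697 CPM and the lysyl oxidase LOXL2 from 10.6 to 251 CPM. LOX, COL6A1 and COL6A2 were among those that fell, LOX from 303 to 52.0 CPM. The fibroblast collagen gene COL1A1 stayed at 38.7 and 40.7 CPM and was not called.

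Surface proteases and their inhibitors rose in 16 of 22 genes and fell in 4 (median 2.50). In the plasminogen system urokinase PLAU rose from 75.9 to 1063 CPM, its receptor PLAUR from 37.5 to 164 CPM and the tissue activator PLAT from 20.9 to 154 CPM. The metalloprotease ADAM19 rose from 3.28 to 588 CPM and the inhibitor TIMP1 from 153 to 1908 CPM. Collagenase MMP1 had 0 counts in PBS and 155 with the ligands, at least 64.9-fold higher against a floor of 3 counts over the group. MMP7, MMP28, SERPINB2 and TIMP3 fell, MMP7 from 39.3 to 0.517 CPM.

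**Figure D3:**
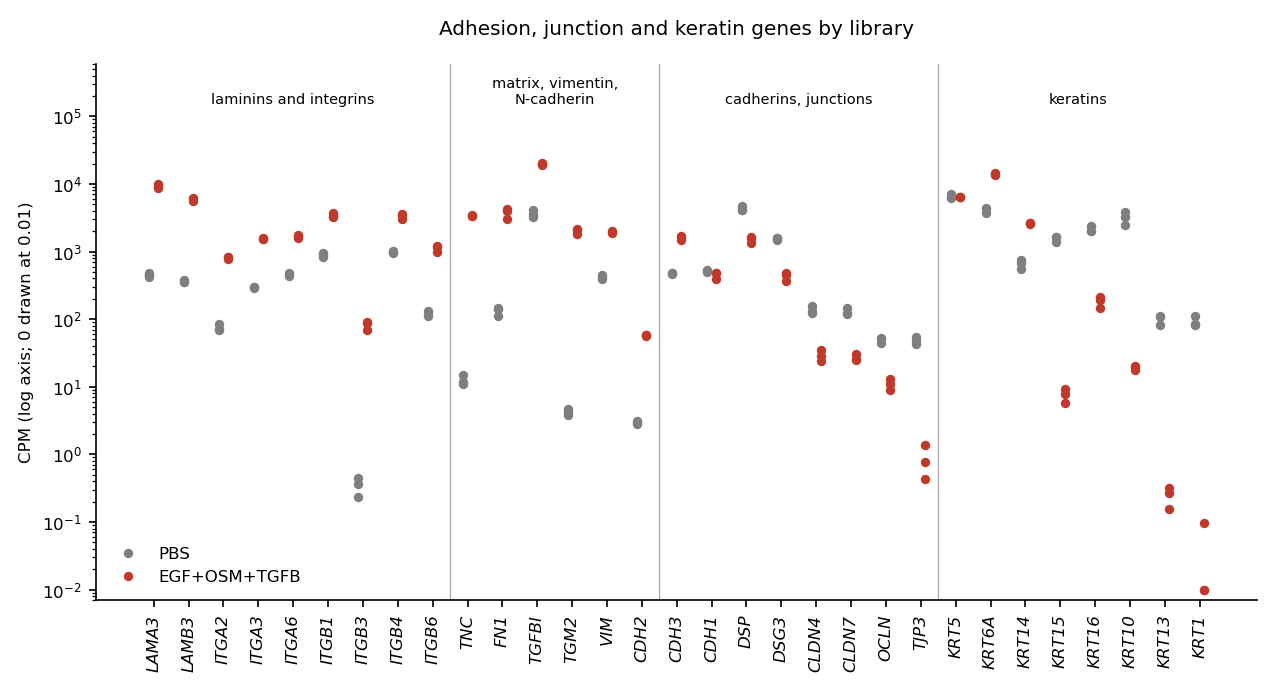
Levels (CPM, log axis; 0 drawn at 0.01) of adhesion, matrix, junction and keratin genes, 1 point for each of the 3 PBS (grey) and 3 ligand (red) libraries. Laminin chains, integrins and matrix genes lie higher with the ligands in all 3 libraries, claudins, occludin and TJP3 lie lower, and CDH1 and KRT5 are close in both groups.

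Genes of mesenchymal cells and the factors that induce them rose in 14 of 22 genes tested and fell in 6, with a median of 2.03, and THY1 and PRRX1 were too low to test. SNAI1 (ENSG00000124216, chromosome 20, 49982980 to 49988886, plus strand), the zinc-finger repressor that starts epithelial-to-mesenchymal transition, stood at 0.225, 0.151 and 0.171 CPM in PBS and at 52.6, 57.1 and 47.5 CPM with the ligands. Its log2 fold change was 8.15 ± 0.19 (SE; adjusted p 1.06e-20, edgeR), and no ligand library came near the PBS level. N-cadherin CDH2 rose from 3.01 to 57.7 CPM, vimentin VIM from 418 to 1948 CPM, the ecto-enzyme NT5E (CD73) from 16.5 to 964 CPM and ZEB1 from 2.36 to 15.1 CPM. CDH11 had 1 count over the PBS libraries and 612 with the ligands, a ratio of 768 (95% exact Poisson interval 137 to 30400, counting error only). Other inducers went down: TWIST1 from 16.8 to 2.80 CPM and ZEB2 from 21.9 to 7.96 CPM, with AXL, LOX, S100A4 and PDGFRB also lower.

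Epithelial junction genes fell in 21 of 29 genes tested and rose in 5 (median -0.92), but E-cadherin was not among those called. CDH1 (ENSG00000039068, chromosome 16, 68737292 to 68835537, plus strand) stood at 510, 532 and 503 CPM in PBS and at 482, 483 and 397 CPM with the ligands, a difference of -0.18 ± 0.13 on the log2 scale (SE; adjusted p 0.203 in edgeR). With the 6 libraries fitted alone the value was -0.22 and the call was made (adjusted p 0.0195, edgeR). Several tight-junction genes fell: TJP3 from 48.7 to 0.860 CPM, the claudins CLDN4 from 139 to 29.2 CPM and CLDN7 from 129 to 26.8 CPM, and occludin (OCLN) from 49.02 to 10.97 CPM. The scaffold gene TJP1 rose, from 123 to 185 CPM, and CLDN1, at 63.9 and 74.6 CPM, was not called. Among desmosome genes, DSP fell from 4142, 4176 and 4676 CPM to 1595, 1648 and 1356 CPM and DSG3 from 1555 to 432 CPM, whereas DSG2 rose from 436 to 721 CPM. P-cadherin CDH3, a basal marker, rose from 480 to 1599 CPM. CLDN7, OCLN and TJP1 are symbols with more than 1 row, as is MMP28 above. So are, below, E2F2, LDHA, CDKN1C, SQSTM1, SAA1, CTSB, ID3 and IRF9. The values of all these genes are uncertain to that extent.

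The contractile actin cytoskeleton rose almost as a whole, with 21 of 22 genes tested higher and none lower (median 2.22). Transgelin TAGLN rose from 21.8 to 608 CPM, the myosin light chain MYL9 from 7.61 to 121 CPM, alpha-actinin ACTN1 from 162 to 2111 CPM, filamin FLNA from 371 to 3966 CPM and the non-muscle myosin heavy chain MYH9 from 778 to 3896 CPM. Smooth-muscle actin ACTA2 was the member not called, at 8.23 ± 1.39 and 7.80 ± 1.30 CPM (SD, n = 3), and CNN1 and LMOD1 were too low to test. ACTB and ACTG1 together took 1.81% of counts against 0.355% in PBS. Targets of YAP and TEAD, factors that respond to cell tension, rose in 12 of 16 genes and fell in 2 (median 0.84). CCN2, CCN1 (6.49 to 112 CPM) and tissue factor F3 (30.7 to 764 CPM) led, AXL and PTPN14 fell, and ANKRD1, at 0.106 and 0.195 CPM, was not called.

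Single keratins moved in both directions, while their joint share of unscaled counts differed less. All 55 keratin genes together took 3.26% ± 0.0806 of the counts with the ligands and 2.85% ± 0.227 in PBS (SD, n = 3). On totals scaled by TMM, as used for single genes, this rise would be larger. KRT5 (ENSG00000186081, chromosome 12, 52514575 to 52520530, minus strand), the basal-layer type II keratin, did not differ in CPM beyond the spread, at 6115, 6299 and 7024 CPM in PBS and 6463, 6378 and 6351 CPM with the ligands. Its share of unscaled counts was lower with the ligands, at 0.561% against 0.711%. Its basal partner KRT14 rose from 660 to 2629 CPM, KRT17 from 2734 to 5467 CPM and KRT6A, a keratin of activated and wounded epidermis, from 3725, 4256 and 4401 CPM to 14510, 14060 and 13380 CPM. KRT15 (ENSG00000171346, chromosome 17, 41513745 to 41522529, minus strand), a keratin of resting basal cells, went from 1666, 1663 and 1404 CPM to 7.73, 9.20 and 5.83 CPM, and KRT16 from 2140 to 183 CPM. Of 6 simple-epithelium keratins 3 rose, KRT7, KRT8 and KRT18, KRT7 from 1542 to 4044 CPM, and 2 fell, KRT80 from 76.6 to 5.00 CPM and KRT19 from 0.465 to 0.149 CPM. The KRT19 libraries overlapped, and its call was lost without PBS replicate 2 (adjusted p 0.220, edgeR) and without ligand replicate 2 or 3. The transcription factor TP63, which keeps basal identity, was at 114 and 123 CPM, a rise of 0.11 on the log2 scale that was called (adjusted p 0.0322, edgeR). The call was lost under both other scalings (0.09 and 0.01; adjusted p 0.0812 and 0.898, edgeR), with no filter, with DESeq2 and with the 6 libraries alone. It was also lost without any 1 of the 3 ligand libraries or PBS replicate 2 or 3 (0.08 to 0.10), so the difference is at the edge of detection.

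Squamous differentiation, the programme by which skin cells fill with suprabasal keratins and cross-linked envelope proteins, was lower in 29 of 30 genes tested, with a median of -5.05 (-4.86 with the member at 0 counts set at its bound). KRT10 (ENSG00000186395, chromosome 17, 40818117 to 40822614, minus strand) stood at 2448, 3212 and 3832 CPM in PBS and at 20.1, 17.8 and 19.3 CPM with the ligands. Its partner KRT1 (ENSG00000167768, chromosome 12, 52674736 to 52680407, minus strand) went from 80.8, 85.2 and 110 CPM to 0.0979, 0 and 0 CPM. The mucosal keratins KRT4 and KRT13 fell from 112 to 0.130 CPM and from 100.5 to 0.246 CPM. At T0 KRT1 stood at only 5.75, 4.56 and 4.03 CPM, so it had risen in PBS cells since 0 h. KRT4 was also lower at T0 than in PBS, at 49.0, 57.6 and 48.9 CPM. For KRT13 the T0 libraries, at 89.4, 97.0 and 72.4 CPM, overlapped with those of PBS. These 4 keratins together made up 0.380% ± 0.0773 of the counts in PBS and 0.00171% ± 0.0000930 with the ligands (SD, n = 3), 222-fold less. Envelope precursors of the SPRR family, whose similar sequences make the split of reads between them uncertain, fell likewise: SPRR1B from 656 to 6.35 CPM, SPRR3 from 314 to 1.92 CPM and SPRR1A from 126 to 0.547 CPM. Involucrin (IVL) fell least, from 112 to 43.5 CPM, and the late-envelope gene LCE3D was the member that rose, from 2.36 to 24.6 CPM. Transcription factors of the programme fell with it, ZNF750 from 38.4 to 1.26 CPM, OVOL1 from 25.1 to 3.43 CPM and GRHL3 from 81.1 to 16.3 CPM.

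Promoter sequences were available in a RefSeq table (GRCh38.p14) of 27305 promoters, of which 11408 matched rows tested. The 250 bases before each start were searched on both strands for 10 motifs, and a stretch could match more than 1 of them. They were TGANTCA (AP-1, the FOS and JUN factors), GTCTAGAC and CAGACA (SMAD site and half-site), TTCNNNGAA (STAT), CCAAT (the CCAAT box), TTTGAA (the cell-cycle homology region, CHR), TTTNGCGC (E2F), ACGTG (the core of the hypoxia-inducible factor site), GGAATG (TEAD) and CATGTC (half-site of the p53 family). TGANTCA stood in 40.9% of the 22 squamous promoters found there, against 4.46% of promoters of rows tested and 6.60% of all promoters. GGAATG stood in 31.8% of the 22, against 9.57% of promoters of rows tested. GTCTAGAC, TTCNNNGAA and TTTNGCGC stood in none, against 0.193%, 5.56% and 2.40% of promoters of rows tested. At such shares few or no matches are likely in any 22 promoters. The motifs given for each list were picked after their shares were seen. Windows of 80 bases around the match are shown for the 3 SPRR genes, and for LAMA3, a gene that rose and holds the same letters. Capitals mark TGANTCA or its reverse complement, and all 4 genes lie on the plus strand, at chr1:152983936-152984015, chr1:153001542-153001621, chr1:153031025-153031104 and chr18:23872858-23872937 in the order given.
SPRR1A: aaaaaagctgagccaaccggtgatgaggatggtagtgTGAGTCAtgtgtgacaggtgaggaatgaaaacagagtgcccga
SPRR3: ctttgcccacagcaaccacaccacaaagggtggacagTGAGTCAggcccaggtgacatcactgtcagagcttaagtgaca
SPRR1B: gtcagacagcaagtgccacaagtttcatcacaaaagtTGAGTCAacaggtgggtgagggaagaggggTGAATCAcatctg
LAMA3: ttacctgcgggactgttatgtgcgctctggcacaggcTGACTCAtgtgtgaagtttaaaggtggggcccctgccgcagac
The matches begin 108, 170 and 125 bases before the start in SPRR1A, SPRR3 and LAMA3, and 141 and 111 bases before it in SPRR1B. The LAMA3 start used here lies well inside the gene span given above, not at its first base. The same letters thus stand before an annotated start of 3 genes that fell and 1 that rose, and a match describes the sequence, not binding.

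Genes of cell division were higher with all 3 ligands. All 32 mitosis genes were called higher, with log2 fold changes of 1.62 to 4.63 and a median of 3.08, and 34 of 35 DNA replication genes were higher with a median of 1.90. MKI67 (ENSG00000148773, chromosome 10, 128096659 to 128126423, minus strand), the marker of cycling cells, stood at 23.6, 13.6 and 27.4 CPM in PBS and at 256, 248 and 337 CPM with the ligands (log2 fold change 3.71 ± 0.24 SE; adjusted p 2.17e-11, edgeR). The mitotic regulators MYBL2, AURKB and ANLN rose most, MYBL2 from 3.90 to 96.1 CPM. Of the replication genes the replication factor MCM10 rose from 0.952 to 19.6 CPM, the ribonucleotide reductase subunit RRM2 from 8.22 to 152 CPM and CDC45 from 0.979 to 13.9 CPM. E2F2 was the member that fell, from 4.96 to 1.56 CPM. The level with all 3 ligands was not the highest of the series: MKI67 averaged 634 CPM with EGF+OSM, 519 with EGF, 309 with OSM, 272 with EGF+TGFB, 89.8 with OSM+TGFB and 13.9 with TGFB. The ligand libraries at 248 to 337 CPM lay below every EGF+OSM library, and overlapped with those of EGF+TGFB, at 219 to 358 CPM. At T0 MKI67 stood at 149, 129 and 149 CPM, above every PBS library and below every library with all 3 ligands.

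In promoters of the mitosis genes, CCAAT and TTTGAA occurred together in 46.2% of the 26 found there, against 3.53% of promoters of rows tested. Promoters of replication genes held TTTNGCGC in 34.5% of 29, against 2.40%, and CCAAT in 62.1%, against 34.7%. Windows are shown for 3 mitosis genes, MKI67 (chr10:128126424-128126503, minus strand), KIF23 (chr15:69414252-69414331, plus strand) and CDC20 (chr1:43358883-43358962, plus strand), with CCAAT and TTTGAA on either strand in capitals, and for 2 replication genes, POLA2 (chr11:65261873-65261952, plus strand) and ORC6 (chr16:46689500-46689579, plus strand), with TTTNGCGC on either strand in capitals. In MKI67 the second TTTGAA shares a base with the CCAAT box on the other strand.
MKI67: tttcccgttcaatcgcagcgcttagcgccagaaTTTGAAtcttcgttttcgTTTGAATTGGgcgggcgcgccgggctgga
KIF23: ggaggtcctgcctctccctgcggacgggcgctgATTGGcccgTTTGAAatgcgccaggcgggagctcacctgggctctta
CDC20: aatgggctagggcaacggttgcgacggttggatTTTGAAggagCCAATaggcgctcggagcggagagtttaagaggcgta
POLA2: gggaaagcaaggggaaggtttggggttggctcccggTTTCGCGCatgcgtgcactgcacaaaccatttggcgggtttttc
ORC6: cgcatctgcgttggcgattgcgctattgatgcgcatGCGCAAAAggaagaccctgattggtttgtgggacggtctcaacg
KIF23 rose from 5.03 to 61.1 CPM, CDC20 from 12.3 to 111 CPM, POLA2 from 3.25 to 14.3 CPM and ORC6 from 4.51 to 17.6 CPM.

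Genes that hold cells out of cycle, or that are known from resting or starved cells, mostly moved the other way. Of 20 CDK inhibitors and quiescence genes tested, 17 fell and 2 rose (median -1.67), and CDKN2A and CDKN2B were too low to test. PDK4, which restrains the use of pyruvate inside the mitochondria of fasted cells, stood at 523, 454 and 464 CPM in PBS and at 3.79, 5.26 and 3.01 CPM with the ligands. The CDK inhibitor CDKN1C fell from 77.7 to 1.24 CPM, TSC22D3 (GILZ) from 383 to 22.1 CPM, FOXO1 from 210 to 31.6 CPM and CDKN1B (p27) from 42.5 to 19.8 CPM. The p53 and TGFB target CDKN1A (p21) fell little, from 477 to 384 CPM. Its call was lost with no filter, without ligand replicate 3 and without PBS replicate 2 (adjusted p 0.0582, 0.0655 and 0.0949, edgeR). CDKN2D and CCNG2 rose, CDKN2D from 3.15 to 7.97 CPM.

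The machinery of protein synthesis and respiration took less of the RNA. Of 40 cytoplasmic ribosomal protein genes tested 35 fell and none rose, by 0.12 to 0.61 on the log2 scale (median -0.33). All ribosomal protein genes together went from 7.52% ± 0.205 to 4.87% ± 0.0419 of counts (SD, n = 3). Factors that assemble ribosomes were mostly higher, 20 of 30 with 7 lower (median 0.28), LYAR most, from 11.99 to 31.65 CPM. All 13 mitochondrially encoded genes fell (median -0.84), MT-CO1 from 9233, 9109 and 9536 CPM to 4357, 4457 and 4998 CPM. Of 25 nuclear genes of the respiratory chain 23 fell and none rose (median -0.69), UQCRC2 from 268 to 133 CPM.

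Glycolysis rose as a pathway, in 15 of 18 genes with 2 lower (median 1.41). The neuronal-type enolase ENO2 (ENSG00000111674, chromosome 12, 6913745 to 6923698, plus strand) went from 0.275, 0.215 and 0.196 CPM to 25.5, 21.8 and 18.5 CPM. Among the abundant enzymes LDHA rose from 390 to 1767 CPM, PGK1 from 434 to 1742 CPM, PKM from 1711 to 4642 CPM and GAPDH from 2621, 2871 and 2879 CPM to 6777, 6417 and 6261 CPM. The lactate exporter SLC16A3 rose from 206 to 770 CPM. The glucose transporter SLC2A1 was at 238 and 237 CPM and was not called, and the muscle phosphofructokinase PFKM fell from 129 to 45.5 CPM. Of the 18, 10 were called higher with all 3 ligands than in each of the 8 other groups, against 2.08% of all rows tested: PFKP, ALDOA, ALDOC, TPI1, GAPDH, PGK1, PGAM1, ENO2, PKM and SLC16A3. The distance could be small: with OSM+TGFB GAPDH stood at 5743 to 5917 CPM and PGK1 at 1235 to 1347 CPM. ENO2 was farther off, at 10.2 to 11.9 CPM with OSM+TGFB. Carbonic anhydrase CA9, a hypoxia-inducible gene outside this list, had 2 counts in PBS and 1197 with the ligands, a ratio of 751 (95% exact Poisson interval 208 to 6210, counting error only), but its 10.5 CPM with OSM alone was close to the 11.4 CPM with all 3.

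Of the 18 glycolysis promoters 44.4% held ACGTG, against 22.7% of promoters of rows tested. Windows are shown for ENO2 (chr12:6914424-6914503), LDHA (chr11:18394340-18394419) and PGK1 (chrX:78104008-78104087), all on the plus strand, as the glycolysis genes with the largest rises, with ACGTG on either strand in capitals.
ENO2: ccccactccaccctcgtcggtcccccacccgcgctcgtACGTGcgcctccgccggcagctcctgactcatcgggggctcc
LDHA: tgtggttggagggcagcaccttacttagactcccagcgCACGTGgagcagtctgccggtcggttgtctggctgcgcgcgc
PGK1: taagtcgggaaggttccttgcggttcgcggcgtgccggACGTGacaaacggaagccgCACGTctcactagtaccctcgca
In LDHA the 6 capitals hold the motif on both strands, and PGK1 holds it at 2 places, 202 and 183 bases before the start. The ENO2 window lies inside the gene span given above, so the start used is not the first base of that span. The motif is short and common, so these windows only show where the letters lie.

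Cholesterol synthesis rose in 19 of 21 genes with 1 lower (median 1.23). The isomerase IDI1 went from 40.8 to 298 CPM, INSIG1, which senses sterols, from 13.2 to 89.6 CPM and HMGCS1 from 61.6 to 320 CPM. The level with EGF+TGFB was close for IDI1, at 298 CPM. Lysosome and autophagy genes were lower in 16 of 24 with 7 higher (median -0.53), GPNMB from 89.6 to 1.84 CPM, the protease CTSD from 1248 to 231 CPM and the autophagy receptor SQSTM1 from 663 to 187 CPM. CTSB and CTSZ were higher, CTSZ from 96.7 to 290 CPM.

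Detoxification genes, many of them targets of the oxidant sensor NRF2, fell in 15 of 20 and rose in 5 (median -2.10). Glutathione peroxidase GPX2 went from 74.9 to 0.385 CPM, the aldehyde dehydrogenase ALDH3A1 from 518, 517 and 699 CPM to 12.2, 13.7 and 18.6 CPM, and the reductase AKR1C1 from 321 to 14.7 CPM. UGT1A6 had 1735 counts in PBS and 2 with the ligands, a ratio of 691 (95% exact Poisson interval 191 to 5710, counting error only). It has exons in common with other UGT1A genes, and the assignment of reads to it is uncertain. Metallothioneins went the other way: MT2A, which binds zinc and copper, stood at 381, 225 and 370 CPM in PBS and at 4819, 5161 and 5340 CPM with the ligands, close to its 5498 CPM with OSM alone. The 10 metallothionein genes took 0.488% of counts against 0.0551%.

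Genes of the 3 ligand systems themselves changed in both directions, with 11 of 22 tested higher and 9 lower (median 0.23), while OSM and ERBB4 were too low to test. Among ligands, the EGF-family members AREG and TGFA rose, AREG from 12.01, 10.87 and 9.36 CPM to 91.1, 77.5 and 114 CPM and TGFA from 63.1 to 262 CPM. TGFB2 rose from 0.801 to 6.32 CPM. IL6, the founding cytokine of the OSM family, had 0 counts in PBS and 15.1, 12.3 and 15.1 CPM with the ligands, at least 607-fold higher against a floor of 3 counts over the group. TGFB1 was at 71.1 and 72.5 CPM and was not called. Among receptors, OSMR rose from 83.9, 79.8 and 75.7 CPM to 768, 769 and 698 CPM, TGFBR1 from 40.1 to 280 CPM, its partner TGFBR2 from 167 to 260 CPM, IL6ST from 147 to 288 CPM and EGFR from 393 to 550 CPM. The EGFR relative ERBB3 fell from 140 to 13.7 CPM, the co-receptor TGFBR3 from 58.7 to 6.02 CPM, IL6R from 122 to 16.8 CPM and ERBB2 from 140 to 91.2 CPM. LIFR, a partner of IL6ST that OSM can also bind, fell from 19.7 to 14.6 CPM.

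Targets of the 3 pathways did not rise uniformly. ERK feedback and early targets were higher in 14 of 19 and lower in 4 (median 2.18): the feedback inhibitors SPRED3 and SPRY4 rose from 0.927 to 32.8 and from 4.87 to 83.6 CPM, the factor ETV5 from 2.69 to 44.1 CPM and the phosphatase DUSP6 from 5.39 to 66.6 CPM. The early genes FOS, EGR1, SPRY2 and MYC were lower at this 24 h point, MYC from 251 to 165 CPM. The EGR1 call was lost with no filter and without ligand replicate 1 or 3 or PBS replicate 3 (adjusted p 0.0583 to 0.112, edgeR). That of FOS was lost without ligand replicate 3 or PBS replicate 2 (adjusted p 0.116 and 0.111, edgeR). SMAD targets were higher in 13 of 20 and lower in 4 (median 1.73), with PMEPA1 from 46.4 to 786 CPM and the inhibitor SMAD7 from 14.4 to 48.1 CPM, while the inhibitors of differentiation ID1, ID2 and ID3 fell, ID2 from 56.5 to 2.61 CPM. STAT3 and acute-phase targets were split, 10 higher and 9 lower of 22 (median 0.67). SOCS3, the feedback inhibitor, rose from 1.20, 1.83 and 1.44 CPM to 73.2, 82.7 and 85.0 CPM and SERPINA1, a symbol with 2 rows, from 9.99 to 488 CPM, but complement C3 fell from 1054 to 205 CPM and the serum amyloids SAA1 and SAA2 from 282 to 58.3 CPM and from 133 to 38.7 CPM. With the 6 libraries fitted alone, fewer STAT3 targets passed the filter and the median was -0.49. With OSM alone C3 averaged 852 CPM, and SAA1 and SAA2, at 388 and 462 CPM, lay above their PBS means.

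**Figure D4:**
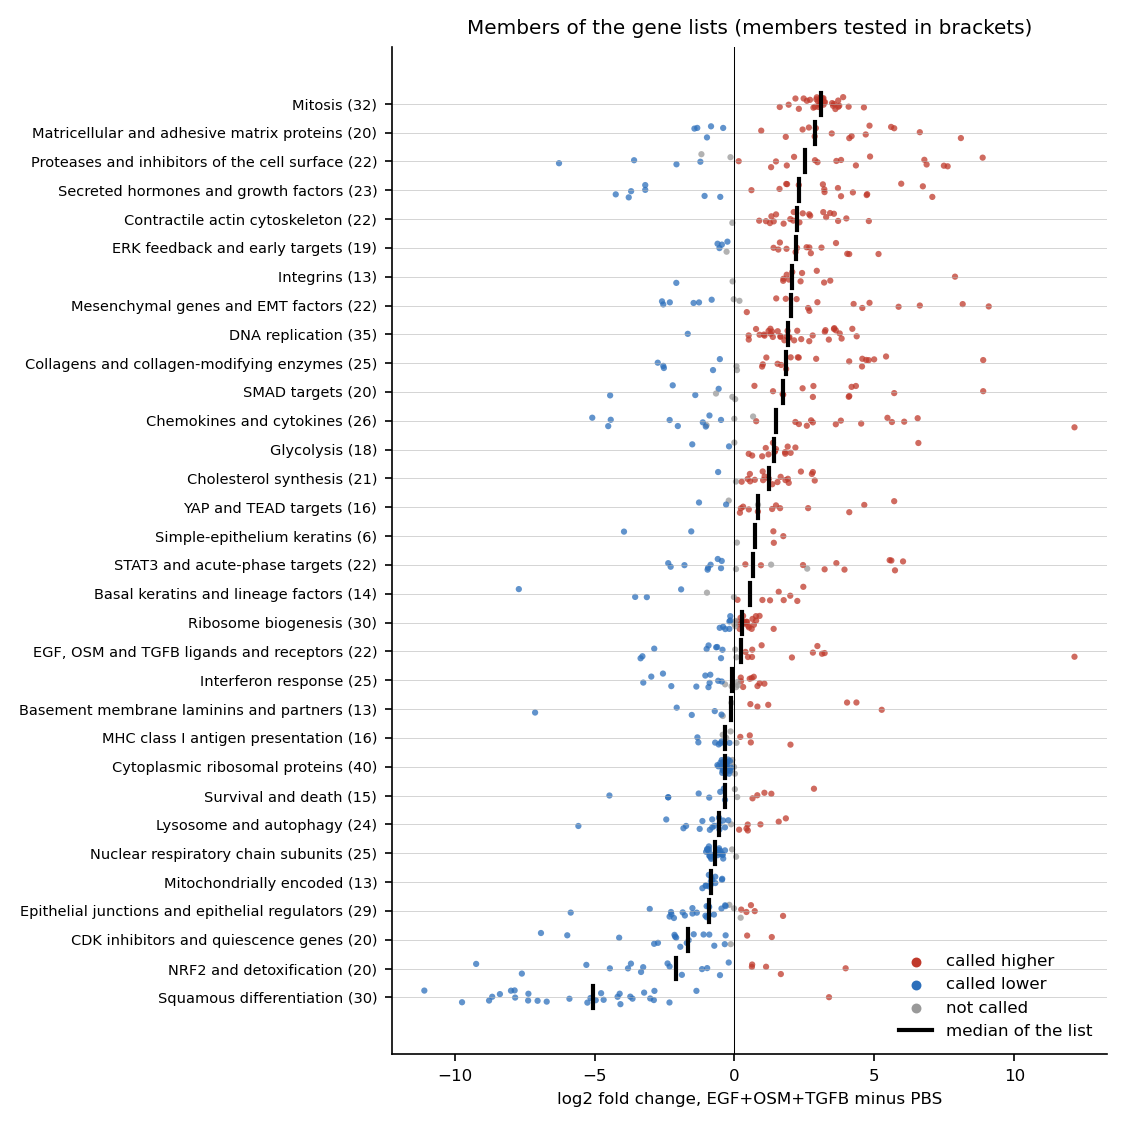
Log2 fold change (horizontal axis, all 3 ligands over PBS) of each tested member of the 32 gene lists, ordered by list median (black bar), in red where called higher, blue where called lower and grey where not called. Mitosis is at the top with a median of 3.08 and no member below 0, squamous differentiation at the bottom with -5.05, and most lists in between hold members on both sides.

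Secreted hormones and growth factors rose in 16 of 23 genes and fell in 7 (median 2.30). ANGPTL4, a lipase inhibitor, went from 30.3, 25.3 and 33.6 CPM to 3162, 3205 and 3110 CPM, the calcium-regulating STC1 from 1.32 to 179 CPM, the parathyroid hormone relative PTHLH from 0.607 to 38.2 CPM and the angiogenic factor VEGFA from 24.4 to 459 CPM. The WNT inhibitor DKK1 fell from 87.9 to 6.44 CPM and GDF15 from 19.6 to 1.53 CPM. Of the 23, 6 were higher than in each of the 8 other groups, against 2.08% of all rows tested: STC2, VEGFA, VEGFC, PTHLH, WNT5A and ANGPTL4. PTHLH, at 31.7 to 44.4 CPM, lay near EGF+OSM, at 26.2 to 28.8 CPM. ANGPTL4 stood at 1838 to 2008 CPM with EGF+TGFB. Chemokines and cytokines were higher in 14 of 26 and lower in 9 (median 1.48). The colony-stimulating factor CSF3 rose from 0.766 to 34.5 CPM, IL24 from 0.0775 to 7.62 CPM, IL1A from 19.6 to 130 CPM and CXCL8 from 2.88 to 14.2 CPM. The interleukin-1 antagonist IL1RN fell from 80.3 to 2.39 CPM and CXCL14 from 14.9 to 0.674 CPM.

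The largest rises among genes of at least 10 CPM with no overlap between libraries were in TNFRSF6B, IL6, TCF19, ODAPH, CA9, TGM2, SCG5, SNAI1, TNC and ITGB3. TNFRSF6B, a decoy receptor that blocks FAS ligand, had 0 counts in PBS and 18.9 to 25.6 CPM with the ligands, at least 893-fold higher against a floor of 3 counts over the group, and averaged 68.2 CPM with EGF+OSM. ODAPH, known from tooth enamel, had 2 counts in PBS and 1937 with the ligands. TCF19 was at 13.3, 0.105 and 21.0 CPM in its most abundant row, and as its symbol has several rows the division of counts among them is uncertain, as for SCG5. The largest falls were in KRT1, DSG4, KRT4, SPRR5, ATP6V1B1, UGT1A6, ALOX12B, MUC21, HSD11B2 and KRT13. HSD11B2 (ENSG00000176387, chromosome 16, 67430652 to 67437553, plus strand), which inactivates cortisol, went from 395, 528 and 553 CPM to 0.881, 1.15 and 0.815 CPM (log2 fold change -9.03 ± 0.32 SE; adjusted p 8.75e-16, edgeR). DSG4, a desmosomal cadherin of hair and cornified layers, had 4898 counts in PBS and 2 with the ligands, and the lipoxygenase ALOX12B of the skin barrier 2360 and 3.

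All 3 ligands were also compared with each of the other groups. Against EGF+TGFB 12.8% of rows were higher and 12% lower, against OSM+TGFB 25.2% and 24.9%, against EGF+OSM 30.4% and 28.4%, and against T0 34.9% and 34.4%. The corresponding shares were 29.5% and 29.1% against EGF, 27.2% and 29.7% against OSM, and 34.6% and 33.4% against TGFB. By count of calls the state was therefore nearest to EGF+TGFB. In all 8 of these contrasts 345 rows (2.08%) were higher and 252 (1.52%) were lower, and without the ligand group's replicate 1 the first number was 196. The same count made for the other groups ran from 39 rows higher with EGF to 888 with EGF+OSM, and the 345 lie inside that range. Few of these rows were far from all other groups: 23 of the 345 and 44 of the 252 differed by more than 2-fold from each of the 8, and the median distance to the nearest group was 0.28 and -0.43 on the log2 scale. EGF+TGFB was the nearest group for 151 of the 345, OSM+TGFB for 134 and EGF+OSM for 53.

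The 8 genes highest relative to all 8 other groups were LCE3D, WNT5A, PTGS2, ATP8A2, PLAT, IL6, NLRP3 and SPRED3. WNT5A (ENSG00000114251, chromosome 3, 55465715 to 55490539, minus strand), a secreted factor of non-canonical WNT signalling, stood at 114, 93.0 and 76.3 CPM with all 3 ligands. In the nearest group, OSM+TGFB, it was at 31.2, 21.8 and 25.7 CPM, and in PBS at 7.17, 6.74 and 7.95 CPM. PTGS2, the inducible cyclooxygenase, was at 62.1, 57.5 and 51.6 CPM, against 19.2, 18.2 and 23.9 CPM with OSM+TGFB and 3.92, 2.65 and 3.11 CPM in PBS. IL6 averaged 14.2 CPM, with 6.18 CPM for EGF+TGFB, 2.81 for OSM+TGFB, 0.276 for EGF+OSM and 0.274 for TGFB. NLRP3, the inflammasome sensor, was at 25.9, 24.7 and 26.1 CPM, and 10.98 to 11.66 CPM with EGF+TGFB. In each of these 4 genes the lowest library with all 3 ligands lay above the highest library of every other group, and the largest adjusted p of the 8 contrasts was 4.55e-09 for WNT5A, 6.58e-10 for PTGS2, 0.000125 for IL6 and 1.31e-05 for NLRP3 (edgeR).

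The 8 lowest relative to all 8 other groups were SCNN1G, TBC1D8, SLC37A2, SPRR1B, RHOV, ARHGEF4, CRABP2 and ABLIM1. SCNN1G (ENSG00000166828, chromosome 16, 23182745 to 23216883, plus strand), a subunit of the epithelial sodium channel, was at 5.09, 6.94 and 4.55 CPM with all 3 ligands, at 16.8, 19.8 and 15.6 CPM in the nearest group, EGF+OSM, and at 283, 318 and 313 CPM in PBS. CRABP2, which carries retinoic acid to the nucleus, was at 5.99, 7.32 and 4.45 CPM, and 10.2, 12.3 and 9.89 CPM with OSM+TGFB. ABLIM1, an actin-binding protein, was at 62.1, 65.3 and 66.5 CPM against 105, 116 and 133 CPM with EGF+TGFB. These groups did not overlap either, though for SPRR1B the distance to EGF+OSM was 1.04 on the log2 scale and the largest adjusted p was 0.00105 (edgeR).

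**Figure D5:**
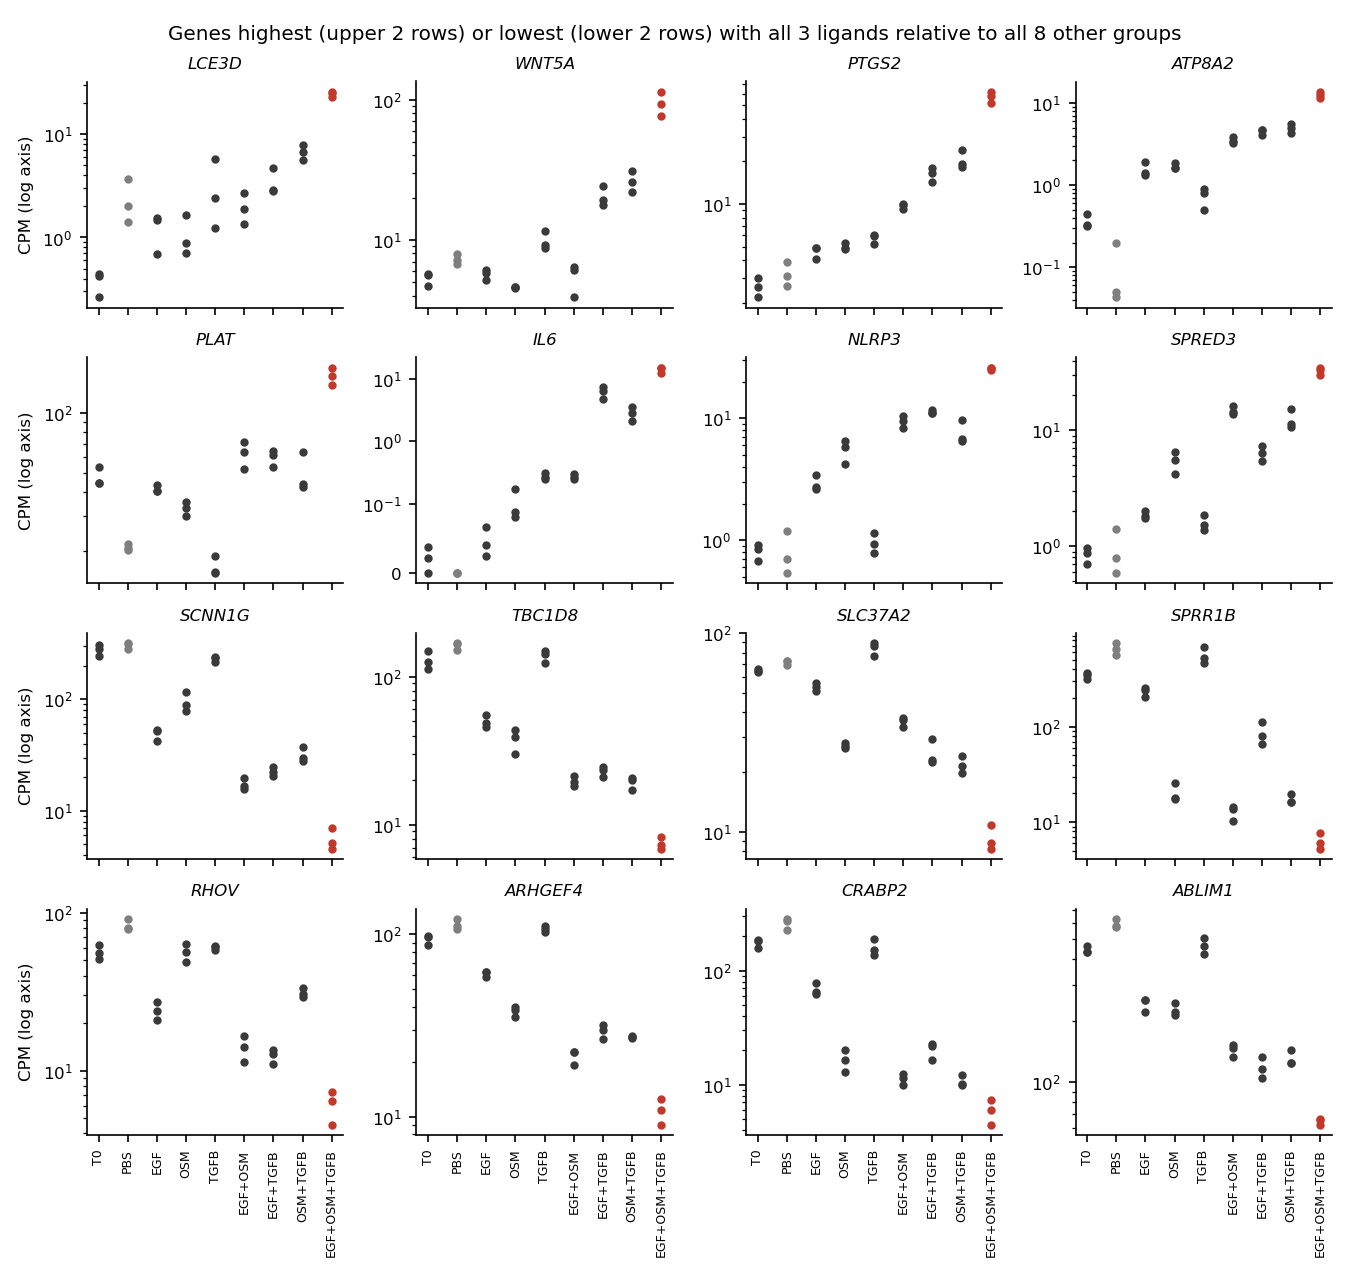
Level in each of the 27 libraries (CPM, log axis) of the 8 genes highest (upper rows of panels) and the 8 lowest (lower rows) with all 3 ligands relative to the 8 other groups; red points are all 3 ligands, pale grey PBS and dark grey the other groups. The red points lie beyond all other points in every panel.

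The groups with 2 ligands differed in how near they came to all 3, and their means are given side by side without a test. TNC averaged 3405 CPM with all 3 ligands, and 3888 with OSM+TGFB, 1066 with EGF+TGFB and 380 with EGF+OSM. FN1 averaged 3741 CPM, and 8756 with OSM+TGFB, 5993 with EGF+TGFB and 76.2 with EGF+OSM, the last below the 132 CPM of PBS. SNAI1 was at 52.4 CPM with all 3 and 53.1 CPM with OSM+TGFB but at 5.79 CPM with EGF+TGFB and 3.62 with EGF+OSM. TGM2 was higher with all 3, at 2020 CPM, than in each of the other groups (largest adjusted p of the 8 contrasts 0.00274, edgeR), of which OSM+TGFB came nearest at 1286 CPM.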

How the data were processed

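RNA from MCF10A cells was measured by sequencing of polyA RNA (TruSeq Stranded mRNA kit, per the labels' protocols). The authors deposited estimated counts per gene as whole numbers, and per the submitters' processing notes the tools were Trim Galore 0.4.3, cutadapt 1.10, FastQC 0.11.5, kallisto 0.46.2 and R 3.5.0, with builds GRCh38.p5 and hg38. The annotation version and the use of strand are not given in the sources used here. The members and gene lists were chosen with earlier results of these data known. All 27 libraries were fitted with edgeR 4.0.16 (quasi-likelihood, robust; TMM; filterByExpr by group; R 4.3.3), with no replicate block. A row was called at an adjusted p under 0.05. On simulated data with 200 changed genes of 16611, 68% of 1.5-fold, 82% of 2-fold and 98% of 4-fold changes were recovered, with 4 false calls. The changed genes were drawn only from rows above a limit on the mean count. Genes were named by rule: the 10 largest rises and falls of at least 10 CPM with no overlap between libraries, the 12 most abundant rows of either group, up to 3 members a list in each direction of at least 5 CPM, the 8 rows farthest above and below all 8 other groups, cell type markers, and the genes of the ligands and their known targets. Further list members named were chosen after their values were seen. A symbol with several rows enters with its most abundant row. Alternatives were median-ratio (RLE) and upper-quartile scaling, no filter, DESeq2 1.42.0, the 6 libraries alone, a replicate block, a test against 2-fold, summed symbols and each library left out. Promoters were from RefSeq. Intervals from counts use the exact Poisson method at 95% and cover counting error only. Some genes are not reported here.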

Additional observations from a re-analysis of the deposited data

How the results depend on the processing

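Fewer calls remained when the test was against a 2-fold change: 3910 rows were called, 2 rows were above and 5 below all 8 other groups. Under the other settings, leaving out each library included, 11418 to 12203 rows were called. Rows above all 8 groups numbered 196 to 347 when 1 library was left out, the lowest without replicate 1 of all 3 ligands. Upper-quartile scaling shifted the median of all rows by -0.1 and list medians with it, to -0.43 for ribosomal proteins, -0.79 for the respiratory chain, 1.31 for glycolysis, -1.03 for junctions, 1.93 for mesenchymal genes, 1.96 for integrins, 2.12 for contractile genes, -0.44 for survival and -2.2 for detoxification. With the 6 libraries alone, fewer members passed the filter, and medians were -0.49 for STAT3 targets (a reversal), 0.96 for basal keratins, 2.29 for contractile genes, 2.2 for chemokines and -0.37 for survival. Leaving out 1 library gave medians of 0.2 to 0.37 for ligands and receptors, -0.98 to -0.92 for junctions, 2.76 to 3.22 for matricellular genes, 0.68 to 1.14 for YAP targets, 1.32 to 2.36 for chemokines and -0.39 to -0.32 for survival. TAPBP reversed to 0.26 when rows of a symbol were summed. For none of these changes was the cause tested, beyond the smaller set of genes named. Libraries of the same replicate number in the 2 groups were only weakly correlated (0.0619, 0.0103 and 0.0362, with 2 of 3 best with their own number). Replicate 3 nevertheless lay lowest in every group on the second axis of a principal component analysis of the 27 libraries. With all 3 ligands it stood there at 22.3, against 32.3 and 37.5 for replicates 1 and 2. In PBS the values were close, at -12.3 against -11.2 and -12.2. A replicate block gave 12203 called rows. Among them were CDH1 (-0.19, adjusted p 0.0333, edgeR) and MUC1 (-0.28, adjusted p 0.0398, edgeR), not called without it. MUC1 was also called under upper-quartile scaling (-0.36; adjusted p 0.0453). Depth and 3 libraries a side limit small changes most, and 68% of simulated 1.5-fold changes were recovered. That simulation changed 200 of 16611 genes, none of them of low count, whereas 72.1% of rows were called here. Its recovery and false calls therefore do not measure those of this comparison.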

Other observations

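Interferon, antigen presentation and survival genes were not described above. Of 25 interferon-response genes 9 were higher and 11 lower (median -0.10), and IFIT1, which binds viral RNA, went from 6.64, 8.01 and 6.77 CPM in PBS to 0.832, 0.732 and 0.658 CPM with all 3 ligands. OAS1, which senses double-stranded RNA, fell from 32.8 to 5.61 CPM, whereas IRF9, a transcription factor of the interferon response, rose from 6.11 to 12.9 CPM. Of 16 genes of MHC class I antigen presentation 4 were higher and 8 lower (median -0.32). The chaperone CALR rose from 380, 395 and 382 CPM to 1591, 1533 and 1510 CPM, and the light chain B2M fell from 520 to 352 CPM. Many genes of this list, B2M included, have more than 1 row, which makes their values uncertain.

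Of 15 survival and death genes 5 were higher and 8 lower (median -0.34). The pro-death BH3 proteins BMF and BCL2L11 (BIM) fell, BMF from 109, 118 and 122 CPM to 4.97, 7.28 and 3.67 CPM and BCL2L11 from 86.9 to 16.9 CPM. Another of them, PMAIP1 (NOXA), was higher. The survival genes MCL1 and BCL2L1 rose, from 511 to 800 CPM and from 74.9 to 132 CPM. In IFIT1, CALR and BMF the libraries of the 2 groups did not overlap.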
